A study of Mus musculus with 20 samples.

Results

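The SR proteins and the heterogeneous nuclear ribonucleoproteins (hnRNPs) were examined as mRNAs in the mouse line NSC-34, which has motor neuron features, in cultures with and without induced HuD (ELAVL4), an RNA-binding protein. Members were the genes of the count table whose symbol starts with Srsf or Hnrnp, pseudogene names left out. They came to 31 of 14924 listed genes, 11 Srsf and 20 Hnrnp. Trex-HuD NSC-34 cells, stably transduced with an inducible vector for tagged human HuD, were compared with control NSC-34 cells, described for CRAC as Trex cells with an empty vector. Total RNA (RNA-Seq) and polysomal RNA (POL-Seq) were sequenced in 2 control and 2 HuD-induced libraries each, and 3′ end mRNA-Seq in 3 and 3, HuD being induced with tetracycline at 2 µg/ml for 48 h. The labels give no dose for these controls. CRAC, in which UV-crosslinked HuD is purified by its tags and the attached RNA is sequenced, used 3 HuD and 3 control preparations, all with 10 µg/ml for 24 h. The labels call the samples biological replicates, and p-values of the tests on counts below measure the spread between them. The whole design rests on 1 cell line, and the HuD made is the human protein in mouse cells.

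SR proteins carry RNA recognition motifs and arginine-serine-rich domains and mostly bind exonic enhancers, where they help the spliceosome to recognise exons. The hnRNPs coat nascent transcripts, often oppose SR proteins at exons, and several of them shuttle to the cytoplasm and act in mRNA transport, stability and translation. HuD is a neuronal ELAV protein that binds U-rich elements, chiefly in 3′ UTRs. Many genes of both splicing families hold highly conserved regions and control their own mRNA through alternative exons coupled to decay.

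The mouse Elavl4 gene, on which reads of the induced human HuD were counted as far as they map there, had 78.3 and 97.4 CPM (counts scaled to library size) in control total RNA and 237 and 212 in HuD total RNA. Its log2 change was 1.35 ± 0.15 (SE) in total RNA with an adjusted p of 0.0866 in edgeR's quasi-likelihood test, so the induced gene itself did not pass the 0.05 threshold used here. In the 3′ end libraries Elavl4 was at 78.1, 38.5 and 78.1 CPM in controls and 54.6, 31.4 and 52.4 after induction (log2 change -0.49 ± 0.29, adjusted p 0.922, and 0.0306 with the replicate number as a block). Of 10 neuron and motor neuron markers 8 were listed, among them Tubb3, Prph and Isl1, but Slc5a7 and Mnx1 were not, and Chat, the enzyme that makes acetylcholine, stayed under 1 CPM. Of 3 markers each, 1 was listed for astrocytes (0.574 CPM in control and 0.437 in HuD total RNA) and 1 for muscle (0.286 and 1.29 CPM), and 0 for fibroblasts and for microglia and blood. Library totals ran from 21296012 to 36284728 counts for total and polysomal RNA and from 12986862 to 15751036 for 3′ ends. The second polysomal control library stood apart. It was the shallowest, and it held the highest polysomal value of 23 of the 31 members against 34.9% of all genes. The medians over all members that use it are given with and without it, and so are several of the named genes.

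HuD CRAC windows, short stretches with crosslinked reads, were listed on the mRNAs of 17 of the 31 members, 12 Hnrnp and 5 Srsf. The sequences below show a leading window of Hnrnp genes with many HuD reads or many deletions, the crosslink mark left by reverse transcription, and then windows of Hnrnpk and of SR genes, those of Hnrnpk, Srsf1 and Srsf6 being taken up again with the 3′ ends. They are 3′ UTR bases of the mRNA, from 5′ to 3′, with the listed window in capitals.

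Hnrnph2: uuggucauguUAUUUGUauggaauucu
Hnrnpa1: uuacuguagaCCUUUUUcacccaugcu
Hnrnpa3: uaGCUUUGUCUUUUUCUUUUUCUUUUCau
Hnrnpa0: acaugucuaaCAUUUUUuuuuuccuag
Hnrnpl: cuguauguguGAUUUUUuuuuuuuccu
Hnrnpa2b1: uaacguuuuuCCUUUAAaaauuuuaag
Hnrnpk: uuguaagaaaCGUUUUAugauuuuuaa
Srsf11: ugcaguaguaUCUUAUGcacagugauu
Srsf1: cauucgugugGAUUUUUuuuucauuca
Srsf6: cccucucccuUCUUUGUagaauuaaga

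The share of members with a window was 54.8% (exact binomial 95% interval 36% to 72.7%), against 9.79% of the other 12922 protein-coding genes with counts. The level of the mRNA moved with that share. Among the other protein-coding genes 25% of those at 100 CPM or more in control total RNA had a window and 5.95% of those under it. Of members at 100 CPM or more 14 of 26 did, or 53.8% (interval 33.4 to 73.4%), and of the less abundant ones 3 of 5. The intervals cover counting error only, and since the authors pooled the CRAC replicates no test between preparations was possible.

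Summed over windows, which can overlap and then hold the same reads, the members had 4704 HuD reads and 406 deletions in 54 windows, and 53 of the windows lay in 3′ UTRs. The other was a coding sequence window of Hnrnph1 with 8 reads. A window-bearing member had a median of 3 windows and 126 reads over them, where other protein-coding genes with a window had 1 and 27.0. The sets were not matched for level. Window-bearing members had a median of 343 CPM in control total RNA, and 614 of 1265 other window-bearing genes with counts were under 100 CPM. Control reads fell in 1 of the 54 windows, with 7 reads. The file lists windows that its authors kept after filtering against control signal, so few control reads are a property of the list.

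Hnrnph2, which binds runs of G in exons and introns, had the most HuD reads of the members, 1704 over 3 windows, the 16th highest sum of 1304 protein-coding genes with a window. Its top window, UAUUUGU at chrX:134606942-134606948 on the plus strand (GRCm38), held 1309 reads but only 4 deletions, and was the window with the 7 control reads. Upstream of it lay ACUUUUU at chrX:134606874-134606880, with 93 reads and 21 deletions. The combined p-values deposited for these windows were 0.0162 and 0.0102. The paper derived such values from genome-wide distributions of coverage and deletions after joining the replicates. They measure no spread between preparations.

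Members of the A group were next. Hnrnpa3, a close relative of the A1 protein, had 753 reads over 8 windows, and 4 of them overlapped end to end at chr2:75665666-75665690 with 153 to 172 reads each, forming the run of CUUUUU repeats printed above. Hnrnpa1, a repressor of exon inclusion, had 553 reads over 6 windows, the highest being CCUUUUU at chr15:103244507-103244513 with 207 reads and 12 deletions. Hnrnpa0, with the top window CAUUUUU at chr13:58126897-58126903 on the minus strand, held 175 reads over 3 windows and Hnrnpa2b1, which acts in splicing and in RNA transport to cell processes, 44 reads in 1 window at chr6:51462833-51462839 on the minus strand. Of those 44 reads 32 carried a deletion.

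Hnrnpc, which itself binds uridine tracts and keeps cryptic exons out of mRNA, had 294 reads over 6 windows. Hnrnph1 had 263 over 5 and Hnrnpu, a nuclear scaffold protein, 262 over 4. Hnrnpl, known for CA-repeat binding, had 81 reads in its single window at chr7:28822169-28822175 on the plus strand, and 38 deletions there were the most of any member window (combined p-value 0.00597). The other hnRNP genes with windows were Hnrnpab with 137 reads, Hnrnpf with 84 and Hnrnpk with 58.

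Srsf windows were fewer and less covered, 8 windows with 296 reads in all against 46 windows with 4408 reads in Hnrnp genes. Srsf11 had 126 reads over 2 windows, Srsf1, the first SR protein described, 71 in 1, Srsf10 45 over 3, Srsf9 31 in 1 and Srsf6 23 in 1. None of the 8 Srsf windows had a combined p-value under 0.05, while 16 of the 46 Hnrnp windows did. Over all members that was 29.6% of windows, beside 20.7% of the 2547 windows on other protein-coding genes. With that threshold 8 members kept a window, all of them Hnrnp genes. The share of other genes that kept one was not taken, so the 8 have no background beside them. The shares of windows do not stand in for it, as window-bearing members had a median of 3 windows and other genes 1. The 16 windows are not independent, Hnrnpa3 and Hnrnpa1 holding 4 each and Hnrnph2 3.

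**Figure D1:**
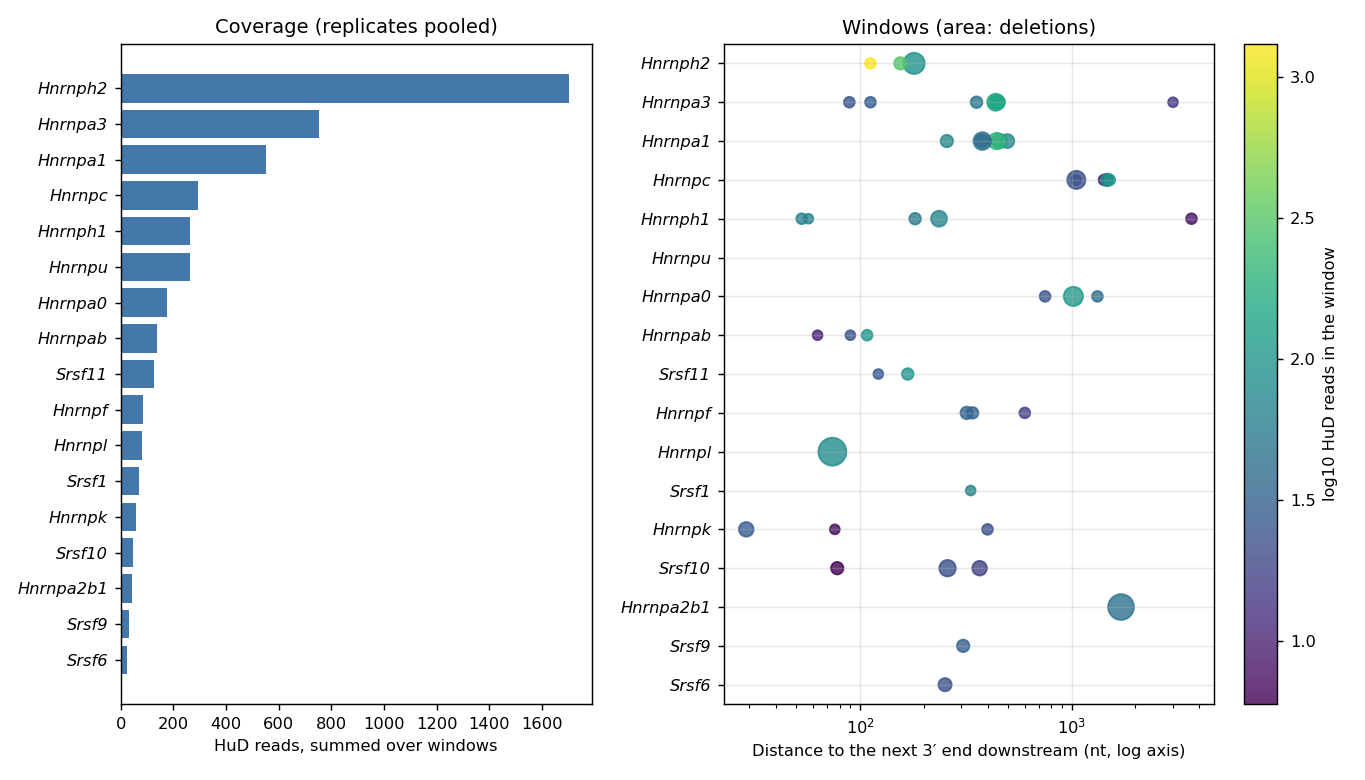
Left, HuD CRAC reads summed over the windows of each of the 17 members that have one (3 preparations pooled by the authors). Right, each window by its distance along the genome, in nucleotides, to the next counted 3′ end downstream (log axis), with circle area for deletions and colour for log10 reads. Hnrnph2 leads with 1704 reads, Hnrnpl and Hnrnpa2b1 have the largest circles, and Hnrnpu has no point on the right because no 3′ end of it was listed.

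Of the 51 member windows of 7 nucleotides, 48 had UUU at positions 3 to 5, or 94.1%, beside 97.3% in other protein-coding genes. The base before UUU was C in 43.8%, A in 33.3% and G in 22.9% of them, beside 40.8%, 31.1% and 28.1% elsewhere. The heptamer UCUUUUU came up most, in 6 windows of Hnrnpa1, Hnrnpa3, Hnrnph1 and Hnrnpk. Annotated 3′ UTRs of members with and without a window were compared by their medians only, and the difference was not tested. The longest 3′ UTR among a gene's annotated coding transcripts had a median length of 1308 nucleotides in members with a window and 1256 in those without, 34.8% and 34.0% U, and 3.19 and 3.02 copies of AUUU, CUUU or GUUU on the mRNA strand per 100 nucleotides. Hnrnpr and Hnrnpd, with 499 and 162 such copies in their longest annotated 3′ UTRs, had no listed window. Their counted 3′ ends lay mostly short of the annotated ones. Hnrnpr had 95.8% of control 3′ end reads at chr4:136340681, and its gene ends at chr4:136359447. Hnrnpd, on the minus strand, had ends at chr5:99961168 and chr5:99961002, and its gene ends at chr5:99955935. How many copies the expressed mRNAs held was not measured.

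Distances to 3′ ends were taken along the genome, so that introns in between count. Windows of members lay at a median of 348 nucleotides before the next counted 3′ end (50 windows with such an end, range 29 to 3677). Those of other protein-coding genes lay at 555 (2180 windows, range 1 to 201710). The 3677 is from the coding sequence window of Hnrnph1. The sets differ in make-up, with 98.1% of member windows in 3′ UTRs and 90.5% of the others. The member windows share genes and are not independent, so no test was made. The closest was CGUUUUA of Hnrnpk at chr13:58391979-58391985 on the minus strand, 29 nucleotides before the end that took 79372 reads. The Hnrnpl window lay 74 and the top Hnrnph2 window 112 nucleotides before their most used ends.

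Levels among members were compared as FPKM, CPM divided by the exon length in kilobases. Their median in control total RNA was 53.1 FPKM against 5.57 over all genes with a length, and the median member stood at the 92.7th percentile. Hnrnpab, an RNA-binding protein of transport granules, led with 422 and 503 FPKM in the 2 control libraries and 402 and 467 in the HuD libraries. Hnrnpa1 followed with 321 and 365 in control and 318 and 357 in HuD cells, and Hnrnpa2b1 with 172 and 208 against 163 and 193. By joined exon length these 3 did not overlap with their neighbours in the order over the control libraries. With the longest transcript as length, Hnrnpa1 and Hnrnpa2b1 had nearly equal control means, 347 and 343 FPKM.

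Srsf2, an SR protein that binds exonic enhancers and was long used as the marker of nuclear speckles, had 119 and 131 FPKM in control and 116 and 130 in HuD total RNA. Hnrnph1 was at 108 and 131 in control cells and Hnrnpa3 at 102 and 119. Srsf2 could not be placed above Hnrnph1, nor Hnrnph1 above Hnrnpa3, on these libraries, and 19 of the 30 neighbouring pairs in the order overlapped. At the low end stood Hnrnpll, Hnrnpr, Hnrnpu and Srsf12, a repressor-like relative of Srsf10, with 0.49 and 0.46 FPKM. Srsf12 alone was below the median of all genes. FPKM depends on the length assigned: with the longest transcript in place of all exons joined, the median was 72.6 and Hnrnpa3 went from 6th to 11th. Hnrnpr had 233 CPM in control total RNA, beside a member median of 256. Its lengths, 22199 nucleotides of joined exons and 21452 by the longest transcript, are set against an annotated 3′ UTR of up to 19419. The last end of that gene took 4.2% of its control 3′ end reads.

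**Figure D2:**
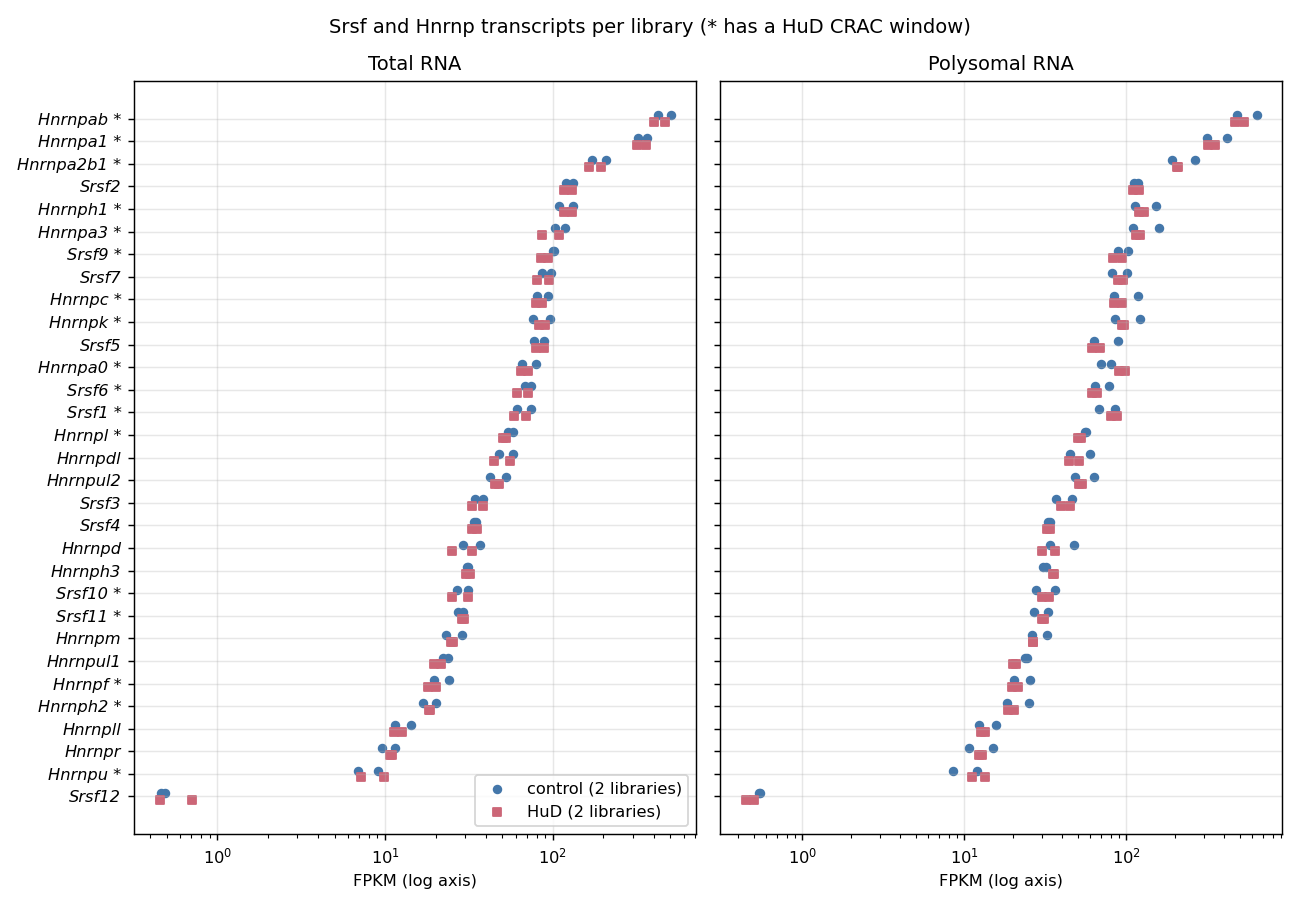
FPKM of the 31 members (log axis) in each total RNA and polysomal RNA library, control in blue circles and HuD in red squares, 2 libraries each, ordered by the control total RNA mean. An asterisk marks a HuD CRAC window. The order runs from Hnrnpab at 422 and 503 to Srsf12 at 0.49 and 0.46 FPKM in control total RNA, and control and HuD points lie close together for each gene.

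Within a group the members moved together from library to library. In total RNA all 31 had their highest value in a replicate 2 library, 24 in the control and 7 in the HuD one. In polysomal RNA 23 were highest in control replicate 2 and 5 in HuD replicate 2. The median member lay 0.13 above its own mean, on the log2 CPM scale, in total RNA control replicate 2 and 0.08 below it in replicate 1, and in polysomal control the medians were 0.22 above and 0.14 below. Over all genes the same medians lay between -0.01 and 0.01. With 2 libraries a group, a shift common to the members within 1 library therefore enters every median below.

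**Figure D3:**
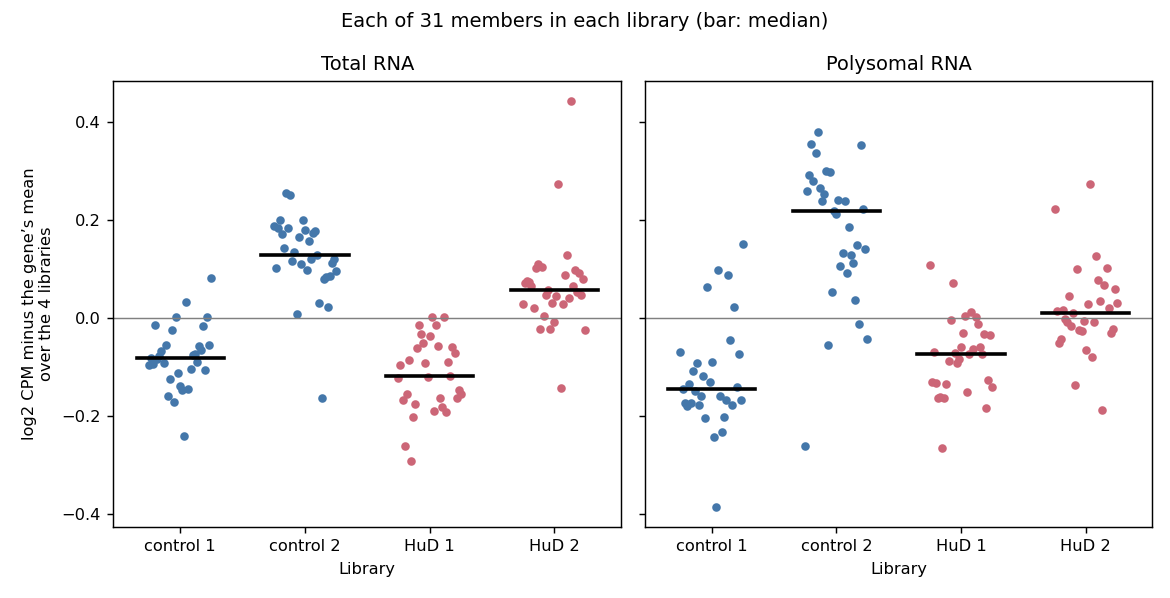
log2 CPM of each of the 31 members minus its mean over the 4 libraries of that RNA fraction. Each point is a gene and each bar the median. Polysomal control replicate 2 sits highest, with a median of 0.22, and polysomal control replicate 1 lowest, with -0.14.

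Association with polysomes was first read in control cells, as polysomal over total RNA. None of the 31 members passed an adjusted p of 0.05 with edgeR or with DESeq2, and 0 had an unadjusted p under 0.05, where 0.174% and 10.7% of 14906 genes did (4.45% higher and 6.25% lower by the unadjusted p). Hnrnp members had a median log2 ratio of 0.19 and Srsf members of -0.00, beside 0.01 for all genes. In the second polysomal control library the median Hnrnp member lay 0.25 above its own polysomal mean and the median Srsf member 0.13. The medians of each family were not taken without that library. Without the second polysomal control library the median over all members was -0.018 in place of 0.13, and without the first it was 0.29. It was 0.018 without total RNA control replicate 1 and 0.24 without total RNA control replicate 2.

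The smallest p among higher members was that of Hnrnpr, a protein of axonal mRNA transport, with 213 and 253 CPM in total and 237 and 332 in polysomal RNA (log2 ratio 0.29 ± 0.15 SE, adjusted p 0.484). Hnrnpab had a log2 ratio of 0.28 ± 0.16 and Hnrnpu of 0.35 ± 0.21. The size of all 3 rested on the second polysomal control library, without which Hnrnpr was at 0.020, Hnrnpab at 0.049 and Hnrnpu at 0.079. Without the first they were at 0.51 (adjusted p 0.0153), 0.47 and 0.58. Of the 3 leading lower members, Srsf2 had 353 and 388 CPM in total and 329 and 348 in polysomal RNA, the groups not overlapping. Members without overlap were 3, Srsf12 higher and Srsf2 and Srsf4 lower, beside 39% of all genes, 18.9% higher and 20.1% lower. Srsf5 was at 308 and 352 CPM in total and 253 and 356 in polysomal RNA, and Srsf9 at 165 and 167 against 168 and 147. The values of Srsf5 and Srsf9 overlapped between the fractions.

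In HuD-induced cells the same ratio gave 5 members with an unadjusted p under 0.05, or 16.1% of 31, beside 12.4% of all genes. Of the 5, 4 were higher and 1 lower, beside 4.85% and 7.59% of all genes. None had an adjusted p under 0.05, beside 0.537% of all genes, 0.047% higher and 0.49% lower. DESeq2 called 1 member, Hnrnpa0, and 1.71% of all genes with an adjusted p. Hnrnpa0, an hnRNP A protein encoded by a gene without introns and tied to AU-rich mRNA, had 172 and 191 CPM in total and 243 and 262 in polysomal RNA. The polysomal values lay above the total ones without overlap, and the log2 ratio was 0.47 ± 0.12 with an adjusted p of 0.147 in edgeR and 0.0141 in DESeq2. The edgeR call turned with the libraries in the fit, to an adjusted p of 0.0382 without the first and 0.0304 without the second polysomal control library, neither of which is part of the ratio. The shares of all genes called were then 2.56% and 2.75%.

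Srsf1 had 333 and 396 CPM in total and 459 and 497 in polysomal RNA of HuD cells (log2 ratio 0.39 ± 0.14, adjusted p 0.309). Hnrnpu had 83.2 and 115 against 129 and 156 (0.53 ± 0.21, adjusted p 0.339), and Hnrnph3, a short relative of the H proteins, 96.0 and 101 against 110 and 113. In the other direction Srsf5 had 316 and 354 CPM in total and 245 and 273 in polysomal RNA (-0.37 ± 0.15, adjusted p 0.367). For each of these 4 genes the fractions did not overlap, as for 49.8% of all genes. Over the members 15 were higher and 1 lower without overlap, beside 25.3% and 24.5% of all genes. Srsf12 and Srsf2 were the next lower by p, at -0.29 ± 0.25 and -0.09 ± 0.10.

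HuD induction was then compared with control in total RNA. None of the 31 members passed the adjusted threshold with edgeR or DESeq2, none had an unadjusted p under 0.05, and 2.64% of all genes had one, 1.78% higher and 0.865% lower, 0 of them past adjustment. The median log2 change of the members was -0.05, beside -0.00 for all genes. It was 0.054 without control replicate 2 and 0.044 without HuD replicate 1, so its direction was not held by these libraries. The 95% intervals of all 31 members lay within a 2-fold change either way, from -0.61 to 0.86 on the log2 scale.

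Hnrnpul1, which acts in RNA processing and the DNA damage response, had 192 and 204 CPM in control and 186 and 170 in HuD total RNA. The groups did not overlap, and the log2 change was -0.15 ± 0.08 (adjusted p 1.00). Srsf9 had 165 and 167 against 141 and 154 CPM, also without overlap, and Hnrnpf, another G-run binder, 59.5 and 73.6 against 54.8 and 60.9, with overlap. Hnrnpul1, Srsf9 and Hnrnpl were the 3 lower members without overlap, with 0 higher, beside 16.7% and 15.1% of all genes (31.9% together). Among members with positive estimates Srsf12 came first by p at 0.29 ± 0.25, then Hnrnpu at 0.09 ± 0.21 and Srsf11 at 0.04 ± 0.10. Leaving out 1 total RNA library turned the sign of each of these 3.

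In polysomal RNA HuD gave 2 members with an unadjusted p under 0.05, 1 higher and 1 lower, beside 4.17% of all genes, 2.29% higher and 1.89% lower, and 0 past adjustment with either tool, as for all genes. Hnrnpa0 had 214 and 188 CPM in control and 243 and 262 in HuD polysomal RNA. Both HuD values lay above both controls, with a log2 change of 0.33 ± 0.12 (p 0.0199, adjusted p 0.969, 95% interval 0.065 to 0.59). Hnrnpul1 had 204 and 209 CPM in control and 172 and 181 after HuD, and here both HuD values lay below both controls (-0.23 ± 0.08, p 0.0226, adjusted p 0.969). With any 1 library left out these 2 estimates kept their sign, from 0.24 to 0.43 and from -0.27 to -0.20.

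Hnrnph3 had 96.8 and 101 CPM in control and 110 and 113 in HuD polysomal RNA, without overlap (0.17 ± 0.08, adjusted p 0.969). In all, 5 members did not overlap between the groups, 2 higher and 3 lower (Hnrnpul1, Hnrnpl and Srsf12), beside 28.7% of all genes, 14.1% higher and 14.6% lower. Hnrnpd, an AU-rich element binding protein, had 248 and 348 against 223 and 266 CPM. Srsf5 had 253 and 356 against 245 and 273, and its estimate changed from -0.23 to 0.043 without the second control library. Hnrnpd was at -0.29 ± 0.19, and at -0.016 without the second control library and -0.51 without the first. Hnrnpu was the next higher member by p at 0.27 ± 0.20, and at 0.54 and 0.038 without these libraries.

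Over the members the median log2 change in polysomal RNA was -0.12, beside -0.01 for all genes, with 22 of 31 below 0. Without the second control library it was 0.10 with 25 above 0, and without the first it was -0.26 with 27 below 0. The direction of the group as a whole thus hung on which polysomal control was kept. Members with a CRAC window had a median of -0.12 and those without one of -0.10, both taken only with all libraries in the fit.

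**Figure D4:**
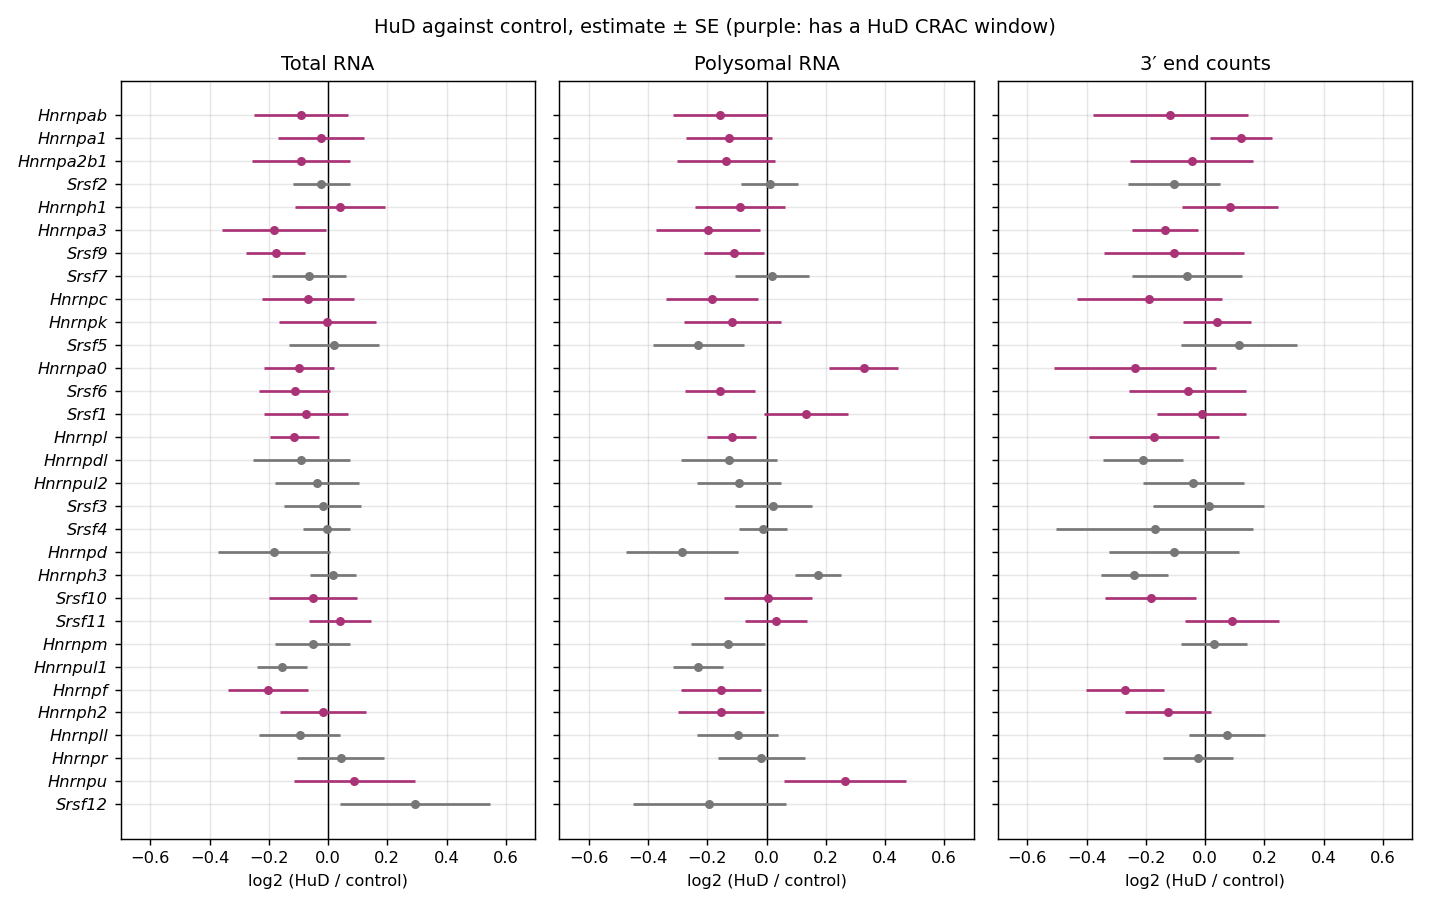
log2 HuD over control, with SE, for each member in total RNA, polysomal RNA and 3′ end counts, ordered by level. Purple marks a HuD CRAC window and grey none. No estimate passed the adjusted threshold. Hnrnpa0 stands to the right in polysomal RNA at 0.33 and to the left in 3′ end counts at -0.24.

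The HuD effect on translation efficiency, the change of the polysomal over total ratio, was tested as an interaction in the same fit. One member, Hnrnpa0, had an unadjusted p under 0.05, or 3.23% of 31, beside 0.979% of all genes, 0.409% higher and 0.57% lower. No member passed adjustment with edgeR or DESeq2, nor any other gene with edgeR. Its log2 polysomal over total ratio was 0.29 and -0.19 in the control pairs of like number and 0.49 and 0.46 in the HuD pairs (difference 0.43 ± 0.17, p 0.0291, adjusted p 1.00). The HuD ratios were higher in both pairs, and the control ratios lay farther apart than the HuD ratios did.

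Hnrnph3 had ratios of 0.0034 and 0.035 in control and 0.20 and 0.15 in HuD cells (difference 0.16 ± 0.11). Srsf1 had 0.16 and 0.20 against 0.46 and 0.33 (0.21 ± 0.20, and 0.38 without the second polysomal control library). These genes and Hnrnpa0 were among 9 members whose ratios did not overlap, 5 higher and 4 lower, beside 38.5% of all genes, 18.6% higher and 19.9% lower. Srsf12 at -0.49 ± 0.36, Srsf5 at -0.25 ± 0.22 and Hnrnph2 at -0.14 ± 0.21 led the negative estimates, and those of Srsf5 and Hnrnph2 turned positive without the second polysomal control library. The member median was -0.04, and 0.16 without that library. It was also above 0 without total RNA control replicate 1 (0.072), total RNA HuD replicate 2 (0.066) or polysomal HuD replicate 1 (0.014). Without any 1 of the remaining libraries it stayed below 0, from -0.18 to -0.068.

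The 3′ end libraries give a separate measure of total mRNA in 3 and 3 samples. Listed ends covered 28 of the 31 members, Hnrnpu, Hnrnpul1 and Srsf12 being absent. Of these 28, 0 passed adjustment with edgeR or DESeq2, beside 0.052% of 9621 genes (0.0208% higher, 0.0312% lower), and 0 had an unadjusted p under 0.05, beside 5.87% (2.87% higher, 3% lower). The median log2 change was -0.08, beside 0.00 for all genes. Samples with the same replicate number deviated together here, and with the number as a block 5 members had an unadjusted p under 0.05, all lower, beside 18.7% of all genes (8.64% higher, 10.1% lower), while 0 passed adjustment, beside 2.26% (1.04% higher, 1.22% lower). The 5 were Hnrnpf, Hnrnpa0, Hnrnph3, Hnrnpdl and Hnrnpl.

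Hnrnph3 had 181, 174 and 182 CPM at its 3′ ends in control and 160, 157 and 139 in HuD cells. All HuD values were below all controls, with a log2 change of -0.24 ± 0.11 (adjusted p 0.880, and 0.143 with the block). Hnrnpf had 1328, 1292 and 1265 against 1124, 1203 and 894 CPM, again without overlap (-0.27 ± 0.13, adjusted p 0.880, and 0.0911 with the block). Hnrnpdl, a D-like relative, had 153, 180 and 163 against 129, 164 and 137 CPM, with overlap. Hnrnpa1 was the 1 member above all controls, and 2 were below all, beside 6.23% and 5.81% of all genes, 12% together. Its values were 309, 325 and 318 CPM against 297, 297 and 281 (0.12 ± 0.10). Hnrnpll and Srsf5 followed it at 0.07 ± 0.13 and 0.11 ± 0.20, and the sign of Srsf5 was not held when single libraries were left out.

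Hnrnpa0, higher in HuD polysomal RNA by its unadjusted p, had 108, 154 and 90.5 CPM of 3′ ends in control and 88.5, 141 and 69.6 in HuD cells. Each HuD library was below the control of its number, yet the groups overlapped widely (-0.24 ± 0.27, adjusted p 0.994, and 0.125 with the block). With single libraries left out the estimate ran from -0.57, without HuD replicate 2, to 0.0034. Replicate 2 of both groups lay outside the range of the other 4 libraries for 16 of the 28 members, and for 43.4% of all genes. The member median was -0.22 without HuD replicate 2, 0.00083 without control replicate 2 and 0.021 without HuD replicate 3.

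Use of alternative 3′ ends within a gene was tested in the 20 members with 2 or more listed ends. None had an adjusted p under 0.05, beside 0.0301% of 3317 genes, and none an unadjusted p under 0.05, beside 0.151%. The smallest p-values belonged to Srsf6, Srsf1 and Hnrnpk. Many listed ends were a few bases apart, and after ends within 20 nucleotides were joined 15 members still had 2 or more.

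In Srsf6, an SR protein that promotes exon inclusion, the upstream end at chr2:162935208 took 62.2%, 61.5% and 57.6% of reads in control and 68.0%, 72.1% and 65.3% in HuD cells. The other end lay at chr2:162937121. All 3 HuD shares were above all 3 controls, 60.4 ± 2.4% against 68.5 ± 3.4% (SD, n = 3). The test gave p 0.288 and adjusted p 1.00, and with the replicate block p 0.0136 and adjusted p 1.00, where 0.995% of genes had an unadjusted p under 0.05. The CRAC window of Srsf6 printed above lay 252 nucleotides before the upstream end.

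Srsf1 showed 64.8%, 72.2% and 66.0% of reads at its upstream end at chr11:88051490 in control and 62.5%, 69.8% and 50.6% in HuD cells, with overlap. Its window lay 333 nucleotides before that end. Hnrnpk, a C-rich sequence binder, placed 72.0%, 76.5% and 72.7% at chr13:58391950 in control and 71.2%, 75.4% and 68.5% in HuD cells, also with overlap. Hnrnpdl, picked after the values were seen, had upstream shares of 78.5%, 78.4% and 77.9% in control and 81.2%, 79.1% and 80.1% in HuD cells. Srsf6 and Hnrnpdl were the 2 of these 15 genes whose shares did not overlap, with 4 of 34 ends, beside 9.9% of ends over all genes.

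**Figure D5:**
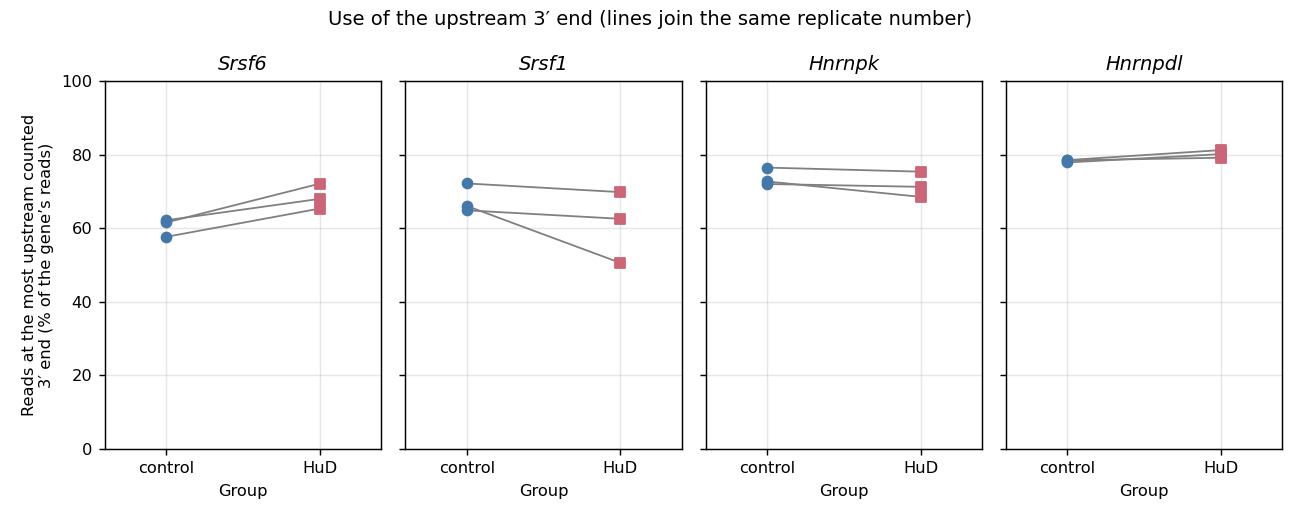
Share of a gene's 3′ end reads (percent) at its most upstream counted end in 3 control and 3 HuD libraries, lines joining equal replicate numbers, for Srsf6, Srsf1, Hnrnpk and Hnrnpdl. The Srsf6 shares run from 57.6 to 62.2% in control and from 65.3 to 72.1% in HuD cells.

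The wider splicing machinery was read from a list of 77 genes, all tested in total and polysomal RNA. In the HuD contrasts of total RNA, polysomal RNA and translation efficiency 0 of them passed adjustment, as for all genes. With an unadjusted p under 0.05 were 3, 1 and 0, all lower. Over all genes 2.64%, 4.17% and 0.979% had one, with 0.865%, 1.89% and 0.57% lower. The 3 in total RNA were Pcbp1, a poly(C)-binding hnRNP (-0.22 ± 0.08), Sf3b4 of the branch site complex (-0.25 ± 0.09) and Snrpb of the Sm core (-0.18 ± 0.08), and the 1 in polysomal RNA was Snrpa1 of the U2 particle (-0.21 ± 0.09). The 3′ end counts covered 66 and gave 0 by either threshold, beside 0.052% of all genes adjusted and 5.87% unadjusted. CRAC windows were listed on 14 of the 77, or 18.2%: 8 of 25 SR-related and other hnRNP genes, 1 of 8 kinases and importers of SR proteins, and 5 of 44 core spliceosome genes. Among protein-coding genes other than members the share was 9.79%, with 25% at 100 CPM or more and 5.95% under it. The 77 were not split by level. For polysomal over total RNA 2 were higher and 3 lower by the unadjusted p in control cells, beside 4.45% and 6.25% of all genes. In HuD cells 6 were higher and 3 lower, beside 4.85% and 7.59%. In both, 0 passed adjustment, beside 0.174% of all genes in control and 0.537% in HuD cells. On this list Ptbp3, a polypyrimidine tract binding splicing repressor, and Tra2b, an SR-like activator, had the smallest p-values for polysomal over total RNA in HuD cells, with log2 ratios of 0.45 ± 0.09 (adjusted p 0.0909) and 0.36 ± 0.09 (adjusted p 0.141).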

How the data were processed

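The authors deposited raw read counts per gene for total and polysomal RNA, read counts near annotated polyadenylation sites, and CRAC windows, pooled over replicates and with control signal penalised, with read coverage, counts of deletions, combined p-values and a PWM score (at least 3 deletions and 6 reads). The processing notes and methods name FastQC, STAR 2.5.3a for RNA counts, TopHat2 2.0.14 for CRAC and the GRCm38 build. Counts were fitted with edgeR 4.0.16 (TMM, filterByExpr, quasi-likelihood, 1 mean per group, the 8 total and polysomal libraries together, the 6 3′ end libraries apart) and adjusted by Benjamini-Hochberg over all genes. Use of 3′ ends was tested with diffSpliceDGE and Simes p-values. FPKM is normalised CPM over joined exon length (GENCODE vM21). DESeq2 1.42.0 was the alternative. Duplicate lines of an end or window were counted once, and window positions are those where the listed letters match the transcripts, 1 or 2 bases from the listed coordinates. The deposited PWM score was not compared.

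Named members were the 6 highest by level, the 3 smallest p-values in each direction of each contrast, all with CRAC windows (full values for the 6 most covered), and the 3 smallest p-values of 3′ end use. The members and lists were chosen with earlier results of these data known. Deviations from group means of same-numbered 3′ end libraries correlated across genes at 0.40, 0.66 and 0.52. Those of unlike number ran from -0.61 to 0.33, the highest being control replicate 3 with HuD replicate 1. The main 3′ end fit had no block, and the replicate number was a block only in an alternative fit. Reads could be shared between close paralogs or overlapping genes, among them Hnrnpab with Phykpl, Hnrnph3 with Rufy2 and Srsf2 with Mettl23. Scripts were tested on simulated data. The result of 1 further marker list is not reported here.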

Additional observations from a re-analysis of the deposited data

Results flagged for a closer look

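Hnrnph3 was picked out because its groups separated in opposite directions in separate data. Its log2 HuD change was 0.17 in polysomal RNA, with both HuD libraries above both controls, and -0.24 in 3′ end counts, with all 3 HuD libraries below all 3 controls. These are unlike measures, since 3′ end counts are of total mRNA. In total RNA its log2 HuD change was 0.02 ± 0.08, with overlap. The differences between these measurements were not tested. Among 31 members read in 3 HuD contrasts, separations of 2 against 2 libraries were common, at 28.7% of all genes in polysomal RNA. Separations of 3 against 3 were seen in 12% of genes in 3′ end counts.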

How the results depend on the processing

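No member was called in any HuD contrast under any alternative run. For polysomal over total RNA in HuD cells, 1 member was called with DESeq2 (1.71% of all genes), 1 in the fit to the 4 libraries of the contrast (2.39%), 2 with the replicate block (Hnrnpu, adjusted p 0.0103, and Srsf1, 0.0285, beside 2.79%), and 0 to 1 with a library left out (0 to 2.75%). In control cells that range was 0 to 7 (0 to 14.4%). The total and polysomal libraries share only a replicate number, with deviations correlated at 0.19 to 0.39 across genes in 2 mirrored pairs, and the block called 0 members in their other contrasts. CRAC windows with a combined p under 0.05 left 8 members, 16 windows and 3103 reads, and the share of other genes left was not taken. The longest transcript gave a median of 72.6 FPKM, with 5 of the top 6 shared. The 3′ end median ran from -0.22 to 0.021 with a library left out.

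With a library left out the sign turned for 25 of 31 members in total RNA, 23 in polysomal RNA, 26 in translation efficiency, 19 of 28 in 3′ end counts, and 18 and 10 of 31 in polysomal over total RNA of control and HuD cells. Among the members named by p these were Srsf5 (polysomal over total in control -0.39 to 0.11, polysomal HuD change -0.46 to 0.043, translation efficiency -0.48 to 0.018, 3′ end counts -0.052 to 0.27), Srsf9 (polysomal over total in control -0.17 to 0.0099), Srsf12 (polysomal over total in HuD cells -0.56 to 0.071, total RNA -0.066 to 0.57), Hnrnpu (total RNA -0.16 to 0.30), Srsf11 (total RNA -0.011 to 0.095) and Hnrnph2 (translation efficiency -0.35 to 0.11). Causes were not tested. Over all genes, polysomal over total calls in control cells went from 26 to 2145 without the first polysomal control. Where an arm is left with 1 library, it is assumed to vary like the other groups. Precision is limited by 2 libraries a group, and CRAC has no replicate values.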
